A study of Mus musculus with 6 samples.

Results

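The 7 genes described here belong to the interleukin-1 family of cytokines and receptors. They are the ligands Il1a, Il1b and Il18, the receptor antagonist Il1rn, the signalling receptor Il1r1, its accessory chain Il1rap and the decoy receptor Il1r2. They were chosen by symbol, and each symbol named 1 of the 33696 genes of the deposited tables. Dissociated mouse brain cells were profiled in 6 single-cell libraries, made with a droplet kit that tags the 3′ end of transcripts, in a series whose title concerns liver, stress and negative emotions. There were 2 libraries of wild-type mice with vehicle (WT vehicle), 2 of wild-type mice with bilirubin (WT bilirubin) and 2 of the TRPM2 Mg KO with bilirubin (TRPM2 Mg KO bilirubin, called the knockout below). No knockout libraries with vehicle were labelled, so genotype and bilirubin cannot be told apart in the knockout against WT vehicle. What "Mg" stands for, the cells in which TRPM2 was removed, and the dose, duration, strain, age, sex and brain region are not given in the sources used. Nothing in the labels says that the libraries of a group came from separate animals, so the spread behind each p-value is that among these libraries and may be technical.

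Interleukin-1α and interleukin-1β bind the same receptor, IL1R1, which then recruits the accessory chain IL1RAP and signals through MYD88 and IRAK kinases to NF-κB. IL1RN occupies the receptor without signalling, and IL1R2 binds interleukin-1 but lacks the signalling domain. The precursors of interleukin-1β and interleukin-18 are cut by caspase-1 in inflammasomes, and interleukin-18 has a receptor of its own. In the brain, microglia and infiltrating myeloid cells are known sources of interleukin-1, and endothelial cells of the brain's vessels are among its best-known receiving cells. Bilirubin is a breakdown product of haem, and TRPM2 is a calcium-permeable channel that opens under oxidative stress.

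Il1a and Il1b are neighbours on chromosome 2, and both were higher with bilirubin in microglia-like cells, so the 250 bases before their start sites are shown. The sequences are from RefSeq on build GRCm38.p6, on the minus strand, at chr2:129309973-129310222 for Il1a and at chr2:129371140-129371389 for Il1b. Capitals mark TATAAA, the letters of a TATA box, and TTNNGNAA, a loose form of the site of C/EBP factors.
Il1a: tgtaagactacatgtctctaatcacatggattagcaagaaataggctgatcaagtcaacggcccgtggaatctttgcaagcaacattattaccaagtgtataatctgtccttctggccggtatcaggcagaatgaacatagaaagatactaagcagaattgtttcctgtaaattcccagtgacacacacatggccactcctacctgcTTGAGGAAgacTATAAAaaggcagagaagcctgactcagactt
Il1b: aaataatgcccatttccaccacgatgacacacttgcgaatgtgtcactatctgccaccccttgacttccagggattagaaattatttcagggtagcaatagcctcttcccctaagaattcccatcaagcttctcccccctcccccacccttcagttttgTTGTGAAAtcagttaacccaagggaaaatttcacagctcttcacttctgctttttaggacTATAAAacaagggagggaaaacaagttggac
All 7 members had an entry in the promoter table, with 10 start sites in all. Both ligand genes held TATAAA shortly before the start, at -32 to -27 in Il1a and at -31 to -26 in Il1b, counted back from -1 at the base before the start site. TTNNGNAA was at -43 to -36 in Il1a and at -91 to -84 in Il1b. Of the 32851 promoters of the table cut to the same length, 12.4% held TATAAA and 36.9% held TTNNGNAA on either strand. The other 3 motifs were searched on both strands. GAGGAA, the core of the PU.1 site, was in Il1a at -41 to -36, inside the TTNNGNAA match, and in 23.3% of all promoters. TGANTCA, the AP-1 site, was in Il1a at -12 to -6 and in 6.75% of all promoters. A form of the NF-κB site, GGG and then TTCC after any 3 bases, was in 4.65% of all promoters and in neither of these windows; among the members it was before 1 start site of Il1rn and 1 of Il1r1. These are matches of letters, not measured binding.

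The 6 libraries held 95014 barcodes and 248584636 UMIs (unique molecular identifiers, 1 per captured transcript), with 24165563 to 63402551 UMIs per library. After the filters on depth, mitochondrial UMIs and doublets, 83095 cells were kept. A cell entered a class, named with "-like", when it held at least 3 markers of that class and at least 2 times as many as of any other. This gate used no member of the family; it placed 31241 cells (37.6% of those kept), 2936 of them (9.40%) with just 3 markers. Knockout library 2 stood apart, with 4137 barcodes and 12.6% of its UMIs in gated cells, against 33.1% to 62.6% in the other libraries. Pairs of libraries shared 12 to 144 barcodes, at most 0.943% of the smaller library. Trpm2, the gene named by the knockout label, had 51 and 56 UMIs with vehicle, 68 and 58 with bilirubin and 56 and 15 in the knockout in microglia-like cells. These are 19.97 and 13.5, 21.9 and 33.7, and 18.7 and 23.7 CPM (the gene's part of all UMIs of the class, on the usual CPM scale). How the gene was altered is not given in the sources used. A 3′ tag outside an altered stretch would still be counted, so these values check nothing about the knockout. A class was tested if every library held at least 20 of its cells: microglia-, endothelial-, choroid plexus-, ependymal-, astrocyte- and oligodendrocyte-like cells.

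The members fell on different classes. Il1a was highest in microglia-like cells, Il18 in astrocyte- and oligodendrocyte-like cells, Il1r1 in endothelial-like cells and Il1rap in oligodendrocyte-like cells among the tested classes, while Il1b, Il1r2 and Il1rn had their highest levels in neutrophil-like cells. Neutrophil-like cells numbered 5 and 41, 28 and 52, and 17 and 2 in the vehicle, bilirubin and knockout libraries, so they were described and not tested. These 145 cells held 24.1% of all Il1b UMIs, 44.1% of all Il1r2 UMIs and 30% of all Il1rn UMIs. Microglia-like cells, 6290 in all, held 36.5% of the Il1a UMIs and 10.8% of the Il1b UMIs. Kept cells that the gate left in no class held 39.3% to 52.6% of each member's UMIs, so the values by class describe only part of each gene's transcripts.

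**Figure D1:**
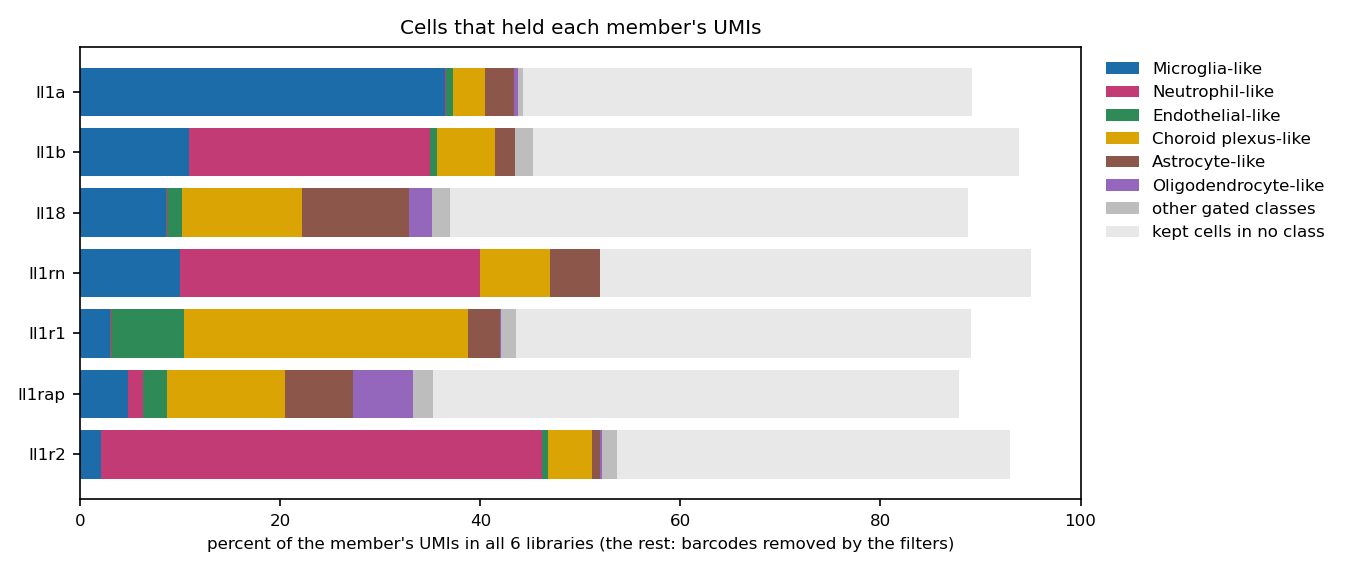
Share of each member's UMIs, over all 6 libraries, by the class of the cell that held them (bars add classes from left to right, in percent). Microglia-like cells held 36.5% of the Il1a UMIs and neutrophil-like cells 44.1% of the Il1r2 UMIs, and kept cells in no class, the palest bars, held 39.3% to 52.6% of each member's UMIs.

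**Figure D2:**
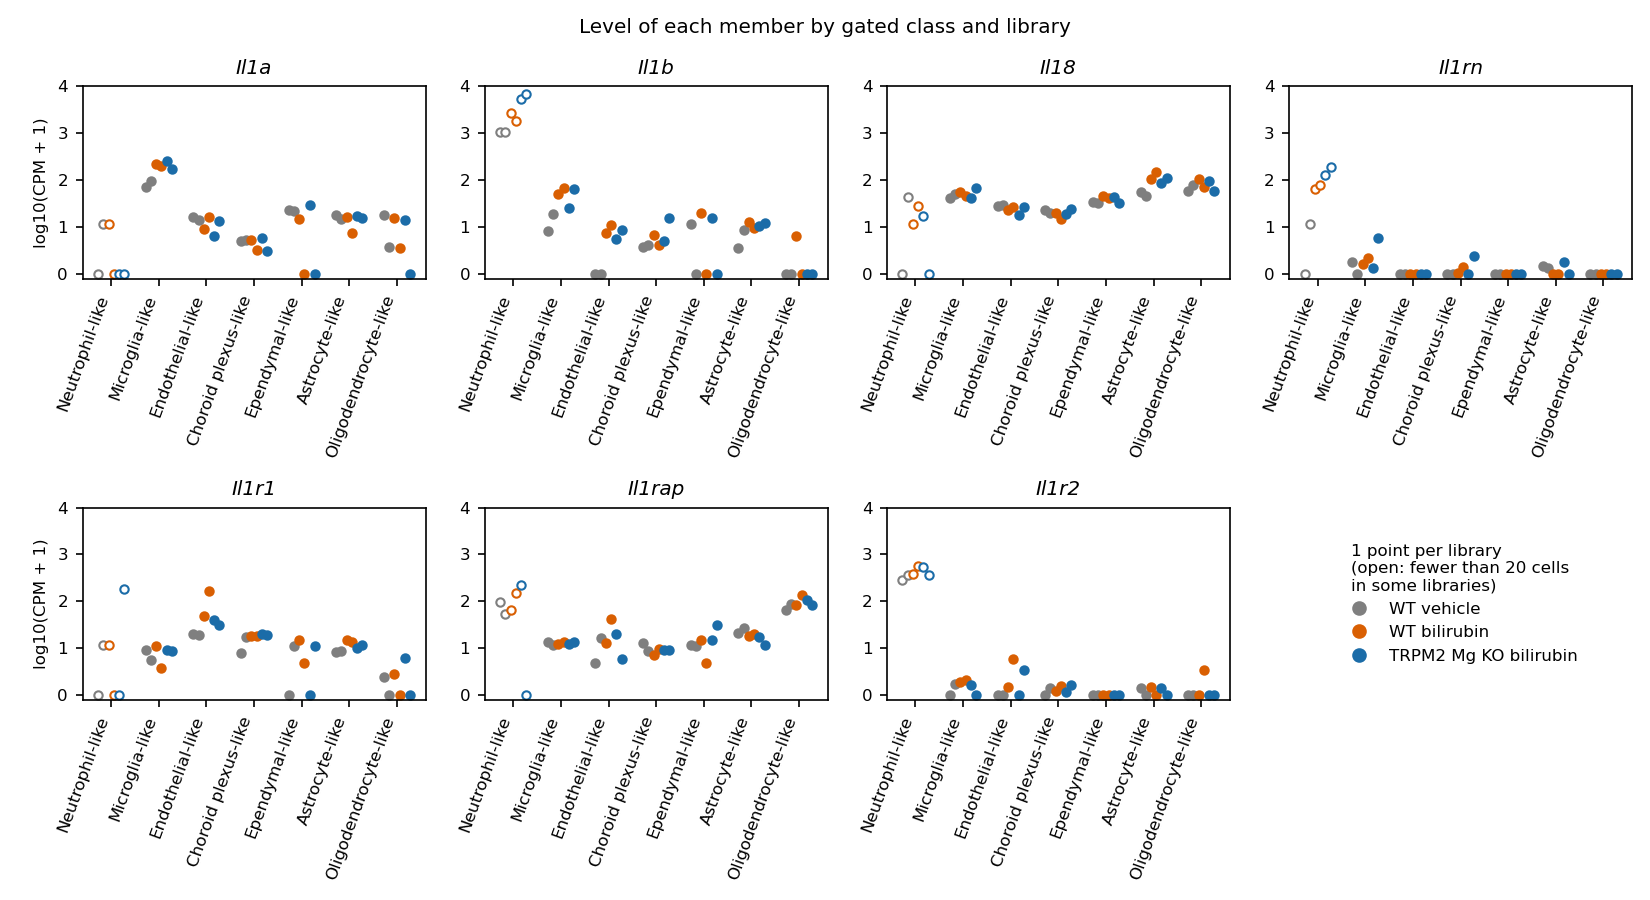
Level of each member, as log10(CPM + 1), in 7 gated classes, with 1 point per library coloured by group and open points for neutrophil-like cells, which were too few to test. Il1a stands highest in microglia-like cells, and Il1b and Il1r2 in neutrophil-like cells.

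Of the 42 pairs of a member and a tested class, 19 had enough counts to be tested and 23 did not, among them every pair of Il1rn and Il1r2 and every member in ependymal-like cells. With bilirubin in wild-type mice 3 of the 19 passed, all higher: Il1a and Il1b in microglia-like cells and Il1r1 in endothelial-like cells. Over all genes tested in the same 6 classes, 1.73% were called in this comparison and 0.334% were called higher. In single classes the share of all genes called was 2.27% in microglia-like cells (0.533% higher) and 4.14% in endothelial-like cells (0.932% higher). In the knockout against WT bilirubin 0 of 19 passed edgeR's test, against 0.0261% of all genes, and in the knockout against WT vehicle 0 of 19 passed, against 0.0626% of all genes. At an unadjusted p under 0.05 there were 4, 1 and 4 pairs in these comparisons, and DESeq2 called 2, 0 and 0. All of these comparisons share libraries, so their counts are not independent of each other.

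**Figure D3:**
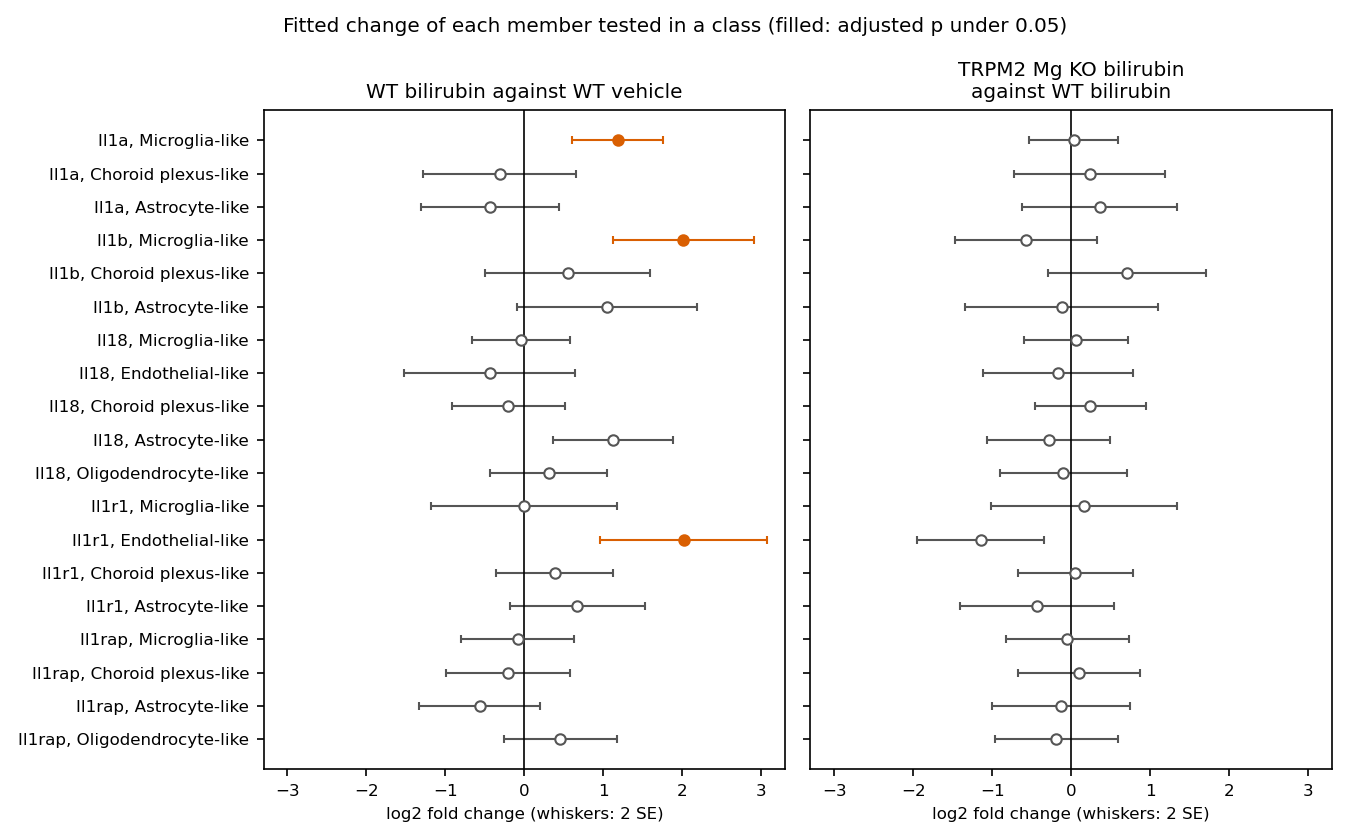
Fitted log2 fold change (edgeR) of each of the 19 tested pairs of member and class, for WT bilirubin against WT vehicle on the left and the knockout against WT bilirubin on the right. Whiskers are 2 standard errors and filled points passed at an adjusted p of 0.05; 3 points on the left and 0 on the right are filled.

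Il1a encodes interleukin-1α, whose precursor is already active when a cell releases it. Microglia-like cells held 181 and 386 of its UMIs with vehicle, 678 and 340 with bilirubin, and 770 and 108 in the knockout. The levels were 70.9 and 93.0 CPM with vehicle, 218 and 198 CPM with bilirubin, and 257 and 171 CPM in the knockout. Both bilirubin libraries and both knockout libraries lay above both vehicle libraries, and the bilirubin values lay inside the range of the knockout values. With bilirubin Il1a rose by 1.18 on the log2 scale (edgeR, SE 0.286, adjusted p = 0.0483), with n = 2 libraries in each group as in all tests here. The knockout differed from WT bilirubin by 0.03 (SE 0.283, 2-SE interval -0.54 to 0.60, adjusted p = 1) and from WT vehicle by 1.21 (SE 0.289, adjusted p = 0.555). The call with bilirubin sat near the threshold and held in 6 of 16 alternatives (adjusted p from 0.00721 to 0.345). It was lost without vehicle library 1 (adjusted p = 0.345) or 2 (0.0609) and without knockout library 1 (0.0746) or 2 (0.0955), while the log2 fold change stayed between 1.03 and 1.401 over these 16.

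The share of microglia-like cells with an Il1a UMI was 9.39% and 17.6% with vehicle, 33.5% and 24.2% with bilirubin, and 32.9% and 23.2% in the knockout. These cells had a median of 1595 and 2382, 3090 and 2113, and 2205 and 2704 UMIs. After thinning to 1000 UMIs per cell, which left out 209 and 62, 43 and 221, and 73 and 24 shallower cells, the shares were 6.09% and 7.67% with vehicle, 14.7% and 15.6% with bilirubin, and 15.9% and 10.7% in the knockout. The order of the groups was kept at equal depth. Choroid plexus-like cells, an epithelium taken here as lacking the gene, had thinned shares of 0.270% to 0.551%, at medians of 2266 to 6028 UMIs. In the other tested classes no library passed 28.6 CPM, and the ranges of microglia-like cells and the next class did not overlap.

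The markers of the gate moved too. The 10 microglia markers summed to 6340 and 7058 CPM in microglia-like cells with vehicle, to 9848 and 10958 CPM with bilirubin and to 10688 and 8613 CPM in the knockout, a 1.55-fold higher mean with bilirubin than with vehicle. The 12 astrocyte markers, all of them counted in every library, summed to 1198 to 1602 CPM with vehicle, 478 to 942 CPM with bilirubin and 963 to 1255 CPM in the knockout. Per 1000 UMIs of microglia markers, Il1a had 11.2 and 13.2 UMIs with vehicle, 22.1 and 18.0 with bilirubin, and 24.1 and 19.8 in the knockout. On that scale both bilirubin and both knockout libraries still stood above both vehicle libraries, the ranges of bilirubin and knockout overlapped, and the mean with bilirubin was 1.65-fold that with vehicle.

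**Figure D4:**
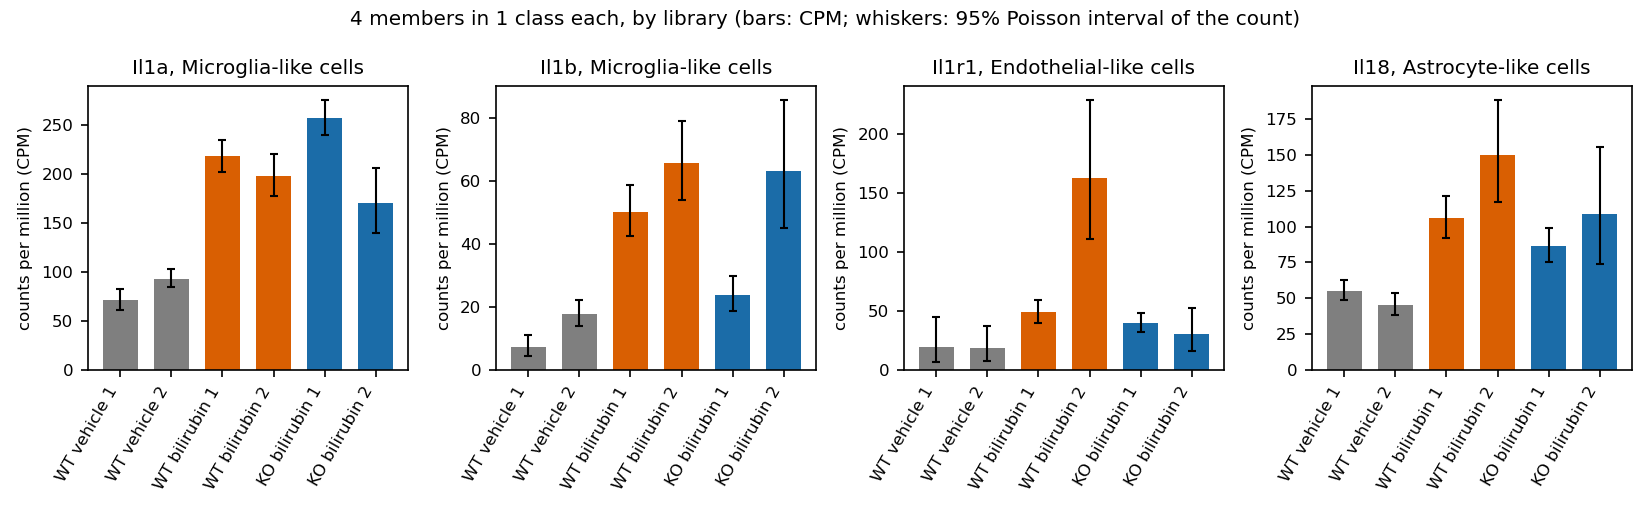
CPM by library (bars) with the 95% Poisson interval of the count (whiskers, counting error only) for Il1a and Il1b in microglia-like, Il1r1 in endothelial-like and Il18 in astrocyte-like cells. In each panel both bilirubin bars stand above both vehicle bars, and 1 bilirubin bar of Il1r1, at 162 CPM, stands far above the other, at 48.5 CPM.

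Il1b encodes interleukin-1β, the form that inflammasomes process. Microglia-like cells held 18 and 73 of its UMIs with vehicle, 156 and 113 with bilirubin, and 71 and 40 in the knockout. The levels were 7.05 and 17.6 CPM, 50.1 and 65.7 CPM, and 23.7 and 63.2 CPM. Both bilirubin libraries stood above both vehicle libraries, while the knockout libraries were split, 1 near the vehicle values and 1 among the bilirubin values. The log2 fold change with bilirubin was 2.01 (SE 0.446, edgeR adjusted p = 0.0426). The knockout differed from WT bilirubin by -0.57 (SE 0.449, 2-SE interval -1.47 to 0.32, adjusted p = 1) and from WT vehicle by 1.44 (SE 0.477, adjusted p = 0.555). Without knockout library 1 the difference from WT bilirubin was 0.16, and without knockout library 2 it was -1.33, neither past the threshold (adjusted p = 0.999 and 1). The call with bilirubin held in 9 of 16 alternatives (adjusted p from 5.36e-06 to 0.196). It was lost without vehicle library 1 (log2 1.58, adjusted p = 0.196) and without knockout library 1 (0.0721) or 2 (0.0955), and without vehicle library 2 the log2 fold change was 2.87 (adjusted p = 0.00368). Per 1000 UMIs of microglia markers Il1b had 1.11 and 2.49 UMIs with vehicle, 5.09 and 5.998 with bilirubin, and 2.22 and 7.33 in the knockout, a 3.08-fold higher mean with bilirubin than with vehicle.

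Few microglia-like cells carried Il1b. The share with an Il1b UMI was 0.985% and 1.78% with vehicle, 7.41% and 5.01% with bilirubin, and 2.92% and 4.82% in the knockout. Thinned to 1000 UMIs it was 0.709% and 0.991%, 3.15% and 3.63%, and 1.33% and 3.03%, against 0.216% to 0.478% in choroid plexus-like cells. The 10 cells richest in Il1b held 72.2% and 71.2% of the class's Il1b UMIs with vehicle, 46.8% and 59.3% with bilirubin, and 71.8% and 97.5% in the knockout. The highest count in a single cell was 2 and 14, 25 and 16, and 20 and 13 UMIs. Cells with an Il1b UMI numbered 15 and 30 with vehicle, 76 and 40 with bilirubin, and 30 and 11 in the knockout. With so few such cells, their number largely sets the share held by 10 of them. That share is therefore no measure of unevenness and is not comparable between libraries. The median cell with Il1b held 1 UMI, or 1.5 in bilirubin library 2. Among cells with Il1b, 20% and 26.7% also held Il1a with vehicle, 47.4% and 47.5% with bilirubin, and 63.3% and 72.7% in the knockout. These shares rest on few cells, with both transcripts in 3 and 8, 36 and 19, and 19 and 8 cells. Among cells without Il1b the shares were 9.28% and 17.4%, 32.4% and 22.9%, and 32.0% and 20.7%. Il1a was more frequent beside Il1b in every library, and the cells with Il1b were also the deeper ones, with medians of 2024 to 4261 UMIs against 1593 to 2977.

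Neutrophil transcripts in microglia-like cells were also higher with bilirubin, and their part in the Il1b result was not tested beyond the values given here. The 12 neutrophil markers, 7 to 10 of which were counted, summed to 108 to 121 CPM in microglia-like cells with vehicle, 344 to 396 CPM with bilirubin and 175 to 193 CPM in the knockout. Neutrophil-like cells themselves held Il1b at 1049 and 1044 CPM with vehicle, 2667 and 1808 CPM with bilirubin, and 5158 and 6791 CPM in the knockout. The counts were 11 and 98, 250 and 331, and 321 and 37 UMIs, so the values of vehicle library 1 and knockout library 2 rest on few UMIs. Neutrophil-like cells held 0.0423 and 0.0367, 0.0521 and 0.0204, and 0.174 and 0.276 Il1b UMIs per UMI of S100a8, a major neutrophil transcript. Microglia-like cells held 1.39 and 2.35, 1.16 and 0.876, and 1.61 and 6.67. In every library the ratio in microglia-like cells was far above that in neutrophil-like cells. S100a8 is among the 12 neutrophil markers of the gate, so the gate itself favours this gap. The 10 microglia-like cells richest in Il1b held a median of 6 to 9 of the 10 microglia markers and of 0 to 1.5 of the 12 neutrophil markers, with at most 4 in any of them. Their median count of monocyte or dendritic cell markers was 0 in every library. The gate required at least 2 times as many microglia markers as markers of any other class. Few markers of other classes in these cells were thus fixed in advance, so these counts are no test of where the Il1b came from.

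**Figure D5:**
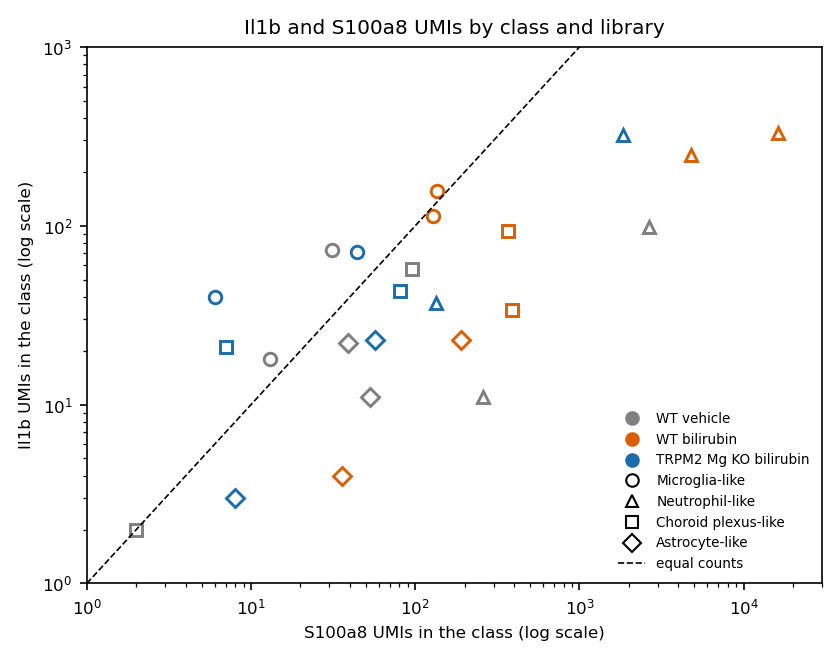
Il1b UMIs against S100a8 UMIs in 4 classes, both on log scales, with 1 point per library and class and a dashed line of equal counts. Microglia-like cells lie near or above the line, from 0.876 to 6.67 Il1b UMIs per S100a8 UMI, and neutrophil-like cells lie below it, from 0.0204 to 0.276. S100a8 is a neutrophil marker of the gate, so the gate itself favours this gap.

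Il1b was lower in the other tested classes than in microglia-like cells by the median over libraries. In astrocyte-like cells it had 2.47 and 7.48 CPM with vehicle, 11.9 and 8.34 CPM with bilirubin, and 9.22 and 10.9 CPM in the knockout (log2 1.05 with bilirubin, SE 0.567, adjusted p = 0.522). In choroid plexus-like cells it had 2.73 and 3.21, 5.75 and 3.13, and 4.10 and 14.3 CPM (log2 0.55 with bilirubin, SE 0.522, adjusted p = 0.743). The Il1b per S100a8 UMI was 0.111 to 0.564 in astrocyte-like cells and 0.0879 to 3 in choroid plexus-like cells, and 1 choroid plexus-like cell of knockout library 2 alone held 20 of the 21 Il1b UMIs. Monocyte- or dendritic-like cells, 15 in all, held 821 CPM of Il1b in vehicle library 2, 874 CPM in bilirubin library 2 and 421 CPM in knockout library 1.

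Il18 encodes interleukin-18, which is made by many cells as an inactive precursor. It was highest in astrocyte-like cells, where it had 245 and 133 UMIs with vehicle, 204 and 72 with bilirubin, and 216 and 30 in the knockout. The levels were 55.0 and 45.2 CPM, 106 and 150 CPM, and 86.6 and 109 CPM. All 4 libraries with bilirubin, of either genotype, stood above both vehicle libraries. The log2 fold change with bilirubin was 1.12 (SE 0.378, unadjusted p = 0.00905) and did not pass (edgeR adjusted p = 0.362); in this class 0.00761% of all genes were called. It passed without bilirubin library 1 (log2 1.27, adjusted p = 0.0149), a fit in which 1528 of 14306 genes of the class passed, against 1 of 13133 with all libraries. The knockout differed from WT bilirubin by -0.28 (SE 0.390, adjusted p = 0.999). The 12 astrocyte markers summed to 6028 to 6800 CPM in this class with vehicle and 8097 to 13241 CPM with bilirubin. Per 1000 UMIs of those markers Il18 had 8.09 and 7.50 UMIs with vehicle, 13.1 and 11.3 with bilirubin, and 10.5 and 13.8 in the knockout.

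Oligodendrocyte-like cells held Il18 at 55.8 and 77.2 CPM with vehicle, 103 and 69.4 CPM with bilirubin, and 93.4 and 58.1 CPM in the knockout. The ranges of astrocyte- and oligodendrocyte-like cells overlapped, and each class was the higher one in 3 of 6 libraries. Microglia-like cells held 40.7 and 49.6, 54.3 and 43.6, and 41.1 and 67.9 CPM, where Il18 differed by -0.04 with bilirubin (SE 0.310, 2-SE interval -0.66 to 0.58, adjusted p = 0.962). The groups overlapped in both of these classes. Ependymal-, endothelial- and choroid plexus-like cells held less, 30.5 to 44.0, 17.3 to 28.4 and 13.5 to 23.2 CPM. Whole libraries held 26.0 to 41.4 CPM of Il18.

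Il1rn encodes the secreted antagonist that competes with both interleukin-1 ligands for IL1R1. It was rare, with 9 and 7 UMIs in the whole vehicle libraries, 18 and 31 in the bilirubin libraries, and 24 and 11 in the knockout libraries. In neutrophil-like cells it had 0 and 1 UMIs with vehicle, 6 and 14 with bilirubin, and 8 and 1 in the knockout. These are 64.0 and 76.5 CPM in the bilirubin libraries and 129 CPM in knockout library 1; in the other libraries the count was below 3, the limit that a count of 0 allows. Microglia-like cells held 10 Il1rn UMIs in all, and endothelial-, ependymal- and oligodendrocyte-like cells 0. Whole libraries held 90.2 and 268 UMIs of Il1a and Il1b together per UMI of Il1rn with vehicle, 185 and 47.7 with bilirubin, and 115 and 76.6 in the knockout. The libraries of each group were far apart on this ratio, and all groups overlapped.

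Il1r1 encodes the receptor that transmits the interleukin-1 signal. In endothelial-like cells it had 5 and 7 UMIs with vehicle, 99 and 32 with bilirubin, and 103 and 12 in the knockout, in 202 and 233, 811 and 114, and 819 and 175 cells. The levels were 19.2 and 18.1 CPM with vehicle, 48.5 and 162 CPM with bilirubin, and 39.5 and 30.1 CPM in the knockout. The vehicle values rest on 12 UMIs, with 95% Poisson intervals of 6.24 to 44.8 and 7.27 to 37.2 CPM. Each bilirubin library stood above each vehicle and each knockout library, and the bilirubin libraries lay far apart. The log2 fold change with bilirubin was 2.02 (SE 0.530, edgeR adjusted p = 0.0256). The knockout was lower than WT bilirubin by a log2 fold change of -1.15 (SE 0.403, 2-SE interval -1.95 to -0.34, unadjusted p = 0.00696), which did not pass (adjusted p = 0.999). The knockout differed from WT vehicle by 0.87 (SE 0.545, adjusted p = 0.487).

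Bilirubin library 2 weighed heavily on both values of Il1r1. Without it the log2 fold change with bilirubin was 1.29 (adjusted p = 0.148) and that of the knockout against WT bilirubin was -0.40 (adjusted p = 1). Without bilirubin library 1 they were 2.88 (adjusted p = 5.84e-05) and -2.001 (adjusted p = 0.00314). The call with bilirubin was also lost without vehicle library 1 (adjusted p = 0.122) or 2 (0.105), and it held in 9 of the 14 alternatives that gave a value. The share of endothelial-like cells with an Il1r1 UMI was 1.49% and 2.58% with vehicle, 9.25% and 16.7% with bilirubin, and 8.91% and 5.14% in the knockout, at medians of 1229 to 2964 UMIs. Thinned to 1000 UMIs, which left out 60 and 35, 80 and 42, and 89 and 37 cells, it was 2.04% and 1.20%, 4.30% and 9.45%, and 3.55% and 2.27%. In oligodendrocyte-like cells, with 1 Il1r1 UMI in a vehicle library, 1 in a bilirubin library and 2 in a knockout library, the thinned share was at most 0.219%, at medians of 2289 to 4050 UMIs.

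The endothelial-like cells also differed in their markers. The 11 endothelial markers summed to 6446 to 7104 CPM with vehicle, 12669 to 14189 CPM with bilirubin and 9537 to 12191 CPM in the knockout. Per 1000 UMIs of those markers Il1r1 had 2.98 and 2.54 UMIs with vehicle, 3.83 and 11.4 with bilirubin, and 3.24 and 3.16 in the knockout. The groups did not overlap on this scale either, but bilirubin library 1 stood close to the vehicle libraries. Genes known from veins (Slc38a5, Nr2f2, Vwf and Ackr1, a list chosen after the values were seen) summed to 104 and 173 CPM with vehicle, 490 and 594 CPM with bilirubin, and 266 and 276 CPM in the knockout. Cells with a UMI of those genes were 12.9% and 21.0% of the class with vehicle, 50.3% and 37.7% with bilirubin, and 39.1% and 34.9% in the knockout. Such shares also depend on the depth of the cells, and these were not thinned to equal depth. In cells with a vein gene Il1r1 stood at 56.95 and 57.5 CPM with vehicle, 67.4 and 271 CPM with bilirubin, and 62.8 and 50.3 CPM in the knockout. In cells without one it stood at 13.3 and 6.66, 19.8 and 59.3, and 16.7 and 13.7 CPM. Il1r1 was higher in the cells with a vein gene in every library, but some of these levels rest on few UMIs. In the vehicle libraries the cells with a vein gene held 2 and 5 Il1r1 UMIs and the cells without one 3 and 2. In knockout library 2 the counts were 9 with a vein gene and 3 without. The part that the kind of vessel cell plays in the bilirubin result was not tested.

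Choroid plexus-like cells, the epithelium that secretes cerebrospinal fluid, held 28.4% of all Il1r1 UMIs. Their Il1r1 level was 6.84 and 16.5 CPM with vehicle, 17.8 and 17.3 CPM with bilirubin, and 19.1 and 18.4 CPM in the knockout. The low vehicle value rests on 5 UMIs. The log2 fold change with bilirubin was 0.38 (SE 0.369, adjusted p = 0.747). Astrocyte-like cells held 7.41 and 7.82 CPM with vehicle, 14.0 and 12.5 CPM with bilirubin, and 9.22 and 10.9 CPM in the knockout (log2 0.67 with bilirubin, SE 0.426, adjusted p = 0.592). Endothelial-like cells were above choroid plexus-like cells in 6 of 6 libraries, although the ranges over all libraries overlapped.

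Il1rap encodes the chain that the ligand-bound receptor needs to signal, and it also serves the receptors of interleukin-33 and interleukin-36. Among the tested classes it was highest in oligodendrocyte-like cells, the myelin-forming glia, at 63.4 and 85.4 CPM with vehicle, 81.9 and 139 CPM with bilirubin, and 104 and 81.3 CPM in the knockout. The counts behind them were 42 and 31, 46 and 56, and 40 and 7 UMIs. In the other tested classes the highest values were 40.6 CPM, from 8 UMIs, in endothelial-like cells of bilirubin library 2 and 30.5 CPM, from 3 UMIs, in ependymal-like cells of knockout library 2. Neutrophil-like cells held 1 and 5 Il1rap UMIs with vehicle, 6 and 28 with bilirubin, and 14 and 0 in the knockout, and reached 153 CPM in bilirubin library 2 and 225 CPM in knockout library 1. The groups overlapped, and the log2 fold change with bilirubin was 0.45 (SE 0.359, 2-SE interval -0.26 to 1.17, adjusted p = 0.593). The 11 oligodendrocyte markers were 1.61-fold higher on average with bilirubin than with vehicle in these cells, and per 1000 of their UMIs Il1rap had 3.15 and 4.08 UMIs with vehicle, 3.04 and 3.54 with bilirubin, and 4.33 and 3.06 in the knockout. In microglia-like cells Il1rap stayed between 10.6 and 12.8 CPM in all 6 libraries. Oligodendrocyte-like cells held Il1r1, the partner of this chain, at 0 to 5.19 CPM.

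Il1r2 encodes the decoy receptor, a known neutrophil transcript. In neutrophil-like cells it had 3 and 35 UMIs with vehicle, 36 and 103 with bilirubin, and 34 and 2 in the knockout, or 286 and 373, 384 and 563, and 546 and 367 CPM. With so few cells the intervals are wide, from 59.0 to 836 CPM in vehicle library 1 and from 44.5 to 1326 CPM in knockout library 2. In no tested class did it pass 5.07 CPM, a value that rests on 1 UMI. Whole libraries held 8.29 and 8.72 UMIs of Il1r1 per UMI of Il1r2 with vehicle, 11.1 and 2.21 with bilirubin, and 10.5 and 15.8 in the knockout. Bilirubin library 2, with the most neutrophil-like cells, was the only one below 8.29.

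In whole libraries, summed over all barcodes, a change in the number of cells of a type and a change in RNA per cell cannot be told apart. Il1b had 4.58 and 9.81 CPM with vehicle, 23.5 and 36.3 CPM with bilirubin, and 19.9 and 12.8 CPM in the knockout. The groups did not overlap, but the log2 fold change of 2.00 with bilirubin (SE 0.441, unadjusted p = 0.00125) did not pass (edgeR adjusted p = 0.411). In this comparison 0 of the 7 members and 0.00513% of all genes passed, and 3 members had an unadjusted p under 0.05. DESeq2 called 1 of them, Il1b (adjusted p = 0.0104), and edgeR did so without vehicle library 2 (log2 2.90, adjusted p = 0.0220), where 210 of 19974 genes passed. Il1r2 had 0.873 and 1.37 CPM with vehicle, 1.49 and 7.35 CPM with bilirubin, and 1.59 and 0.952 CPM in the knockout. Its log2 fold change was 1.88 with bilirubin (SE 0.661, adjusted p = 0.413) and -1.65 in the knockout against WT bilirubin (SE 0.662, adjusted p = 1); without bilirubin library 2 they were 0.48 and -0.23. S100a8 had 35.9 and 93.9, 232 and 1182, and 74.8 and 213 CPM in the same sums.

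In the whole libraries Il1a stood at 25.0 and 19.8, 30.4 and 23.4, and 38.7 and 22.1 CPM, 0.33 on the log2 scale with bilirubin (SE 0.312, adjusted p = 0.749). The groups overlapped. Whole libraries held 5.44 and 2.01 Il1a UMIs per Il1b UMI with vehicle, 1.30 and 0.645 with bilirubin, and 1.94 and 1.72 in the knockout. Il1r1 had 7.24 and 11.97, 16.5 and 16.2, and 16.7 and 15.02 CPM (log2 0.76 with bilirubin, SE 0.351, adjusted p = 0.489). In the knockout, 0 of 7 members passed against WT bilirubin, where 0.00513% of all genes did and 1 member had an unadjusted p under 0.05. Against WT vehicle 0 of 7 passed, as did 0% of all genes, and 2 members had an unadjusted p under 0.05. DESeq2 called 0 members in either of these.

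The rest of the pathway was followed with lists of 14 further ligands and receptors of the family, 18 signalling genes, 12 genes of processing and release and 20 genes known to be induced by interleukin-1. These lists were chosen with earlier results of these data known, so the counts called in them are no independent test of interleukin-1 action. In microglia-like cells with bilirubin 2 of the 15 tested induced genes rose and 0 fell, where 0.533% of all genes of the class were called higher. Socs3, an inhibitor of cytokine signalling, had 75.6 and 71.0 CPM scaled by TMM with vehicle, 196 and 207 with bilirubin, and 87.4 and 103 in the knockout (log2 1.46, SE 0.268, adjusted p = 0.0388). Lcn2, which encodes the siderophore-binding lipocalin-2 and is abundant in neutrophils, had 3.02 and 0.518, 37.8 and 4.49, and 5.58 and 11.1 (log2 3.83, SE 0.832, adjusted p = 0.0420). The bilirubin libraries lay far apart for Lcn2, and knockout library 2 stood above bilirubin library 2. The median log2 fold change was 0.53 for these 15 genes, 0.30 for 18 signalling genes and 0.48 for 12 processing genes, against 0.03 for all genes. The microglia markers of the gate had a 1.55-fold higher mean with bilirubin in these cells, and the lists were not set on that scale. None of the signalling or processing genes passed. Gsdmd, the pore-forming executor of interleukin-1β release, had 23.8 and 26.7, 68.6 and 43.8, and 55.8 and 44.2 CPM scaled by TMM (log2 1.16, SE 0.305, adjusted p = 0.0545). Nlrp1b, an inflammasome sensor, stood at 1.15 on the log2 scale (adjusted p = 0.0779, SE 0.344).

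In endothelial-like cells with bilirubin, 5 of the 10 tested induced genes rose and 0 fell, where 0.932% of all genes of the class were called higher. The median log2 fold change of the 10 was 1.18 against 0.02 for all genes. The endothelial markers of the gate had a 1.98-fold higher mean with bilirubin than with vehicle, and the list was not set on that scale. Lcn2 had 13.3 and 5.76 CPM scaled by TMM with vehicle, 264 and 219 with bilirubin, and 35.5 and 78.1 in the knockout (log2 4.78, SE 0.542, adjusted p = 1.36e-07). Lrg1, which encodes a secreted glycoprotein of inflamed vessels, had 4.44 and 0, 82.5 and 89.8, and 1.56 and 20.2 (adjusted p = 0.000539; 1 vehicle library held 0 UMIs, so the fitted fold depends on the prior count). In both genes the bilirubin libraries stood far above the vehicle libraries, and the knockout libraries stood between or near the vehicle values. Against WT bilirubin both were lower in the knockout, Lcn2 at -2.31 on the log2 scale (SE 0.363, adjusted p = 0.000264) and Lrg1 at -4.21 (SE 0.564, adjusted p = 1.07e-05). They were the 2 called of the 10 tested induced genes in that comparison, in which 0.0902% of all genes passed.

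The other genes that rose in endothelial-like cells were Nfkbia, the feedback inhibitor of NF-κB (log2 1.30, SE 0.385), Vcam1, an adhesion molecule for leukocytes (1.60, SE 0.454), and Ackr1, a venular chemokine receptor (2.59, SE 0.712). Their adjusted p-values were 0.0436, 0.0368 and 0.0311, and Ackr1 is also in the list of vein genes. None of these 3 differed between the knockout and WT bilirubin past the threshold. Il1rapl1, a synaptic relative of the accessory chain, fell with bilirubin from 187 and 193 to 69.1 and 64.8 CPM scaled by TMM (log2 -1.48, SE 0.393, adjusted p = 0.0261). The knockout libraries held 118 and 31.8. In this class 213 of 6650 genes were called lower with bilirubin. The 12 astrocyte markers in these cells summed to 1511 to 1990 CPM with vehicle, 883 to 1011 CPM with bilirubin and 931 to 1164 CPM in the knockout. Whether RNA of other cells took part in the fall of Il1rapl1 was not tested. Il1rapl1 was also lower in both bilirubin libraries in microglia-, choroid plexus- and oligodendrocyte-like cells, without a call there. In astrocyte- and ependymal-like cells and in whole libraries the vehicle and bilirubin libraries overlapped. None of the 12 tested signalling genes passed; Ube2n was nearest, at 1.23 (SE 0.398, adjusted p = 0.0652), followed by Peli1 with 0.95 (SE 0.390, adjusted p = 0.166). The neutrophil markers summed to 34.6 to 77.5 CPM in endothelial-like cells with vehicle, 223 to 259 CPM with bilirubin and 72.1 to 75.3 CPM in the knockout, and their part in the rise of Lcn2 was not tested.

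In choroid plexus-like cells with bilirubin 1.24% of all genes were called in either direction, and 30 of 14814 were called higher. Of 15 tested induced genes 1 rose, Lcn2 (log2 3.13, SE 0.680, adjusted p = 0.0254). It had 3.76 and 0.870 CPM scaled by TMM with vehicle, 16.2 and 3.57 with bilirubin, and 3.38 and 7.64 in the knockout. Bilirubin library 2 lay below vehicle library 1, so the groups overlapped and, of the bilirubin libraries, only library 1 stood above both vehicle libraries. The neutrophil markers summed to 30.1 to 35.2 CPM in this class with vehicle, 115 to 132 CPM with bilirubin and 38.9 to 46.4 CPM in the knockout, and their part in the call was not tested. The median of those 15 genes was -0.13 against 0.02 for all genes. In the knockout against WT bilirubin 0.054% of all genes of this class were called in either direction, and 2 of 14814 were called higher. Cxcl2, a chemokine for neutrophils, was called higher in the knockout than in WT bilirubin (log2 3.51, SE 0.652, adjusted p = 0.0123). It had 5.01 and 5.80 CPM scaled by TMM with vehicle, 2.32 and 1.41 with bilirubin, and 3.38 and 47.9 in the knockout, where only library 2 stood above the vehicle values. In astrocyte-like cells, where 0.00761% of all genes were called with bilirubin, and in oligodendrocyte-like cells, where 3.72% were, none of the listed genes passed with bilirubin.

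The genes whose pattern was most like each member's were named by Pearson correlation of log2(CPM + 1) over 53 sums of a class in a library, from 10 classes. These points share libraries and classes, so the values are descriptive. Il1a was most like Xlr (r = 0.802), P2ry12 (0.802) and Cd83 (0.799), of which P2ry12 is a marker of the gate. Il1b was most like Tnfaip2 (0.866), Trim30b (0.860) and Hcar2 (0.856), and Il1rn most like Sirpb1b (0.952), Acod1 (0.941) and Gm30509 (0.940). Il1r2 was most like Mmp8 (0.962), a neutrophil collagenase used in the gate, Trem1 (0.953) and Mrgpra2a (0.952). Il18 was most like Washc2 (0.822), Mir100hg (0.793) and Fgfr2 (0.784). Il1rap was most like Dop1b (0.805), Pstpip2 (0.686) and Glp2r (0.683). Il1r1 had the weakest likeness, with Slc7a5 (0.641), an amino acid transporter of brain endothelium, N4bp3 (0.617) and Egfl8 (0.611).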

How the data were processed

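For each library the authors deposited raw counts (UMIs of each gene in each barcode, not normalized), and the deposited tables of barcodes and genes hold names only. Per the file headers the matrices were written by Cell Ranger 9.0.1; per the submitters' processing notes the tools were Cell Ranger 8.0.0 and Scanpy 1.9.6 and 2 builds are named, mm10 and GRCm39, without their role, so no coordinate is taken from the counts.

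Barcodes needed 500 UMIs, 300 genes and no more than 15% mitochondrial UMIs. Scrublet (scanpy 1.11.5) was run on each library and 11049 doublets were removed; in knockout library 2 the automatic threshold called too few, and the top-scoring cells at the expected rate were removed. Cells were placed by 17 lists of 8 to 12 markers, and class names need not match the study's. Raw UMIs were summed per class and library and tested two-sided with edgeR (version 4.0.16, R 4.3.3; quasi-likelihood) using TMM, filterByExpr, 1 fit of all 6 libraries and Benjamini-Hochberg adjustment over all genes of a class and comparison, at 0.05. With 2 libraries against 2, the smallest p of an exact permutation test is 0.333. CPM in the text are of raw class sums unless said to be scaled by TMM; intervals of CPM are exact 95% Poisson intervals and, like the floor of 3 counts, cover counting error only. Depth was 24165563 to 63402551 UMIs per library.

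The members, markers and lists were chosen with earlier results of these data known. Named genes were all members, the genes of each list called in a tested class or else the 2 with the smallest p in microglia-like (processing list) or endothelial-like cells, and the 3 most correlated genes per member among genes with a mean of at least 5 CPM in its highest class. S100a8, the vein genes and Trpm2 were added to these. Alternatives were median-of-ratios size factors, DESeq2 1.42.0, no count filter, a replicate block, only the 4 libraries compared, each library left out, stricter cell filters and gates, doublets kept, and Leiden clusters.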

Additional observations from a re-analysis of the deposited data

Results flagged for a closer look

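Between classes, 6 pairs of effects of 1 member went opposite ways, in that both libraries of a group stood above both libraries of the other in 1 class and below them in another class. These differences between classes were not tested, and values are log2 ratios of mean CPM. With bilirubin in wild-type mice Il18 was higher in ependymal-like cells (0.401) and lower in endothelial-like cells (-0.236), a difference of 0.637. In the same comparison Il18 in astrocyte-like cells (1.35) differed from that in endothelial-like cells by 1.59. In the knockout against WT bilirubin Il1r1 was higher in choroid plexus-like cells (0.0983) and lower in endothelial-like cells (-1.60), a difference of 1.70. It was also lower in astrocyte-like cells (-0.398), a difference of 0.496 from choroid plexus-like cells. In the knockout against WT vehicle Il1a was higher in microglia-like cells (1.38) and lower in endothelial-like cells (-0.658), a difference of 2.04. In that comparison Il18 was higher in astrocyte-like cells (0.966) and lower in endothelial-like cells (-0.384), a difference of 1.35. Several of these rest on few UMIs, such as 3 to 19 per library for Il18 in ependymal-like cells.

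Kept cells in no class entered no test by gated class, though they are part of the whole-library sums, and 4 members were higher there in both bilirubin libraries than in both vehicle libraries. The ratio of mean CPM between those groups was 4.84 for Il1b, 4.15 for Il1rn, 1.75 for Il1r1 and 3.63 for Il1r2. S100a8 in the same cells had 38.8 and 104 CPM with vehicle, 283 and 1780 CPM with bilirubin, and 60.5 and 240 CPM in the knockout, and its part in these ratios was not tested.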

How the results depend on the processing

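The count of 3 members called with bilirubin over the tested classes was 1 with median-of-ratios size factors, 1 with only the 4 libraries compared, 0 in cells with at least 1000 UMIs, 1 with doublets kept and 1 with Leiden clusters, and ranged from 0 to 4 with each library left out. In whole libraries the count of 0 with bilirubin was 1 with DESeq2 and 2 with no count filter, and ranged from 0 to 1 with each library left out. For the knockout against WT bilirubin the count of 0 over classes ranged from 0 to 1 with each library left out (1 without bilirubin library 1), and the count of 0 in whole libraries was 1 with no count filter. For the knockout against WT vehicle the count over classes ranged from 0 to 1, with Il1a in microglia-like cells called without bilirubin library 1 or 2 (adjusted p = 0.0277 and 0.0368), and the count in whole libraries was 1 with no count filter. The sign of Il1a in microglia-like cells in the knockout against WT bilirubin, 0.03, turned to -0.04 without bilirubin library 2, -0.26 without knockout library 1, -0.13 with a gate of at least 3 times the next class and -0.051 with Leiden clusters, and was 0.25 without knockout library 2. That of Il1b, -0.57, turned to 0.16 without knockout library 1 and was -1.33 without knockout library 2. The causes were not tested. For each of the 7 members the tested class with the highest median level was the same under the stricter cell filter and both stricter gates. With a gate of at least 3 times the next class Il1r1 in endothelial-like cells was removed by the count filter, and DESeq2 gave it no adjusted p for bilirubin. With the replicate number as a block 3, 0 and 0 members were called over classes and 0 in whole libraries in each comparison, as without it. The numbers only name the libraries: deviations of same-numbered libraries in whole libraries correlated at -0.018, 0.092 and -0.308 between pairs of groups, so no pairing was used. Leaving out a library leaves 1 in its group, which is then assumed to vary like the others. Depth limits Il1rn and Il1r2, of which no tested class held enough UMIs to test.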
